A study of Mus musculus with 4 samples.

Results

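The genes of the D-type cyclins and of the inhibitors of cyclin-dependent kinases (CDKs) were read on 4 one-colour whole mouse genome arrays of cultured T helper (Th) cells. The members were named by gene family, with earlier results of these data known, as Ccnd1 to Ccnd3, Cdkn1a to Cdkn1c and Cdkn2a to Cdkn2d. Of these 10 genes, 9 had a probe that could be named, with 12 of the 41173 probes used, and all 12 probes were well above background on all 4 arrays. Ccnd1 was not analysed here. Naive CD4 T cells were taken from the spleen of C57BL/6J mice, which the labels describe as female with no age given. The methods of the study describe young adult mice, and both sexes for work in vitro. The WT cells were compared with Bach2 KO cells, in which floxed Bach2 alleles (Bach2flox/flox) were combined with a CD4-Cre transgene (TG), whose Cre recombinase is driven by the Cd4 promoter and so acts in T cells. All cells received an anti-TCR-β mAb at 3 µg/ml, bound to the plate, with an anti-CD28 mAb at 1 µg/ml for 2 days and were then kept with IL-2 at 2.5 ng/ml for 3 days. For each genotype, 1 sample was read at this resting stage and 1 after 4 h on the immobilized anti-TCR-β mAb with no IL-2 added. Resting here means only that the cells were not re-stimulated, and not that they were out of the cell cycle. At this stage the proliferation gene Mki67 had signals of 41570 (WT) and 31587 (KO). The sample titles do not say whether both samples of a genotype came from 1 culture. A response to re-stimulation thus holds both the TCR signal and the loss of added IL-2, which cannot be told apart. There was 1 array for each of the 4 conditions, and nothing in the labels says whether mice were pooled.

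Progress of a cell from G1 into DNA synthesis is set in large part by D-type cyclins, which bind and activate CDK4 and CDK6 so that the retinoblastoma protein is phosphorylated and E2F factors are released. The Ink4 proteins encoded by the Cdkn2 genes bind CDK4 and CDK6 and keep them from the D cyclins, while the Cip/Kip proteins encoded by the Cdkn1 genes bind cyclin and CDK complexes, mainly those of CDK2. In T cells, signals from the TCR and from IL-2 raise D cyclins and lower p27, the product of Cdkn1b, before the cells divide.

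Each value is a scanner intensity with the background subtracted, and each difference is a log2 value between arrays after every array was scaled to its own 75th percentile. That percentile was a signal of 436 (WT) and 434 (KO) before and 313 (WT) and 353 (KO) after re-stimulation, so a ratio of signals as printed differs from the scaled fold. With 1 array per condition no difference has a replicate check, so a difference of 2-fold or more was used as a rule of size and not as a test. The scanner software's own error of a log2 difference lay between 0.20 and 0.27 for the members, and it was nearly a fixed share of the signal. Between probes of one gene, the median SD of the log2 difference lay between 0.094 and 0.16. Neither covers the spread between mice, cultures or hybridizations. The Bach2 probe gave signals of 2932 (WT) and 2633 (KO) before re-stimulation and 3310 (WT) and 3080 (KO) after it. Its log2 differences were only -0.15 and -0.28, so it did not check the genotype, and KO here means the array labelled Bach2 KO. None of 9 T cell markers differed by 2-fold between the genotypes. Of 10 mast cell and basophil markers, 5 before and 6 after re-stimulation were well above background on the KO array alone. Their summed signal was 213 (WT) and 1463 (KO) before and 327 (WT) and 1911 (KO) after re-stimulation, while Ms4a2, Mcpt4 and Tpsb2 were dim on all 4 arrays. The summed signals of 8 myeloid markers were 319 (WT) and 658 (KO) before and 120.2 (WT) and 311 (KO) after it, with Lyz2 and Itgam dim on all arrays. Summed signals of 8 B cell markers ran from 173 to 613 and those of 7 NK cell markers from 1849 to 2198. Within the NK list, Eomes, which T cells can also express, had signals of 283 (WT) and 860.0 (KO) before and 1039 (WT) and 1096 (KO) after re-stimulation, and Klra8 was well above background on the KO arrays alone. The CD8 T cell marker Cd8a was so only on the re-stimulated KO array, with a signal of 63.0 there against 14.0 on its WT partner. Of the Y-linked genes, Eif2s3y, Ddx3y and Kdm5d were well above background on the KO arrays alone, and Uty was dim on all 4 arrays. Xist differed by -1.04 and -1.19, although every sample is labelled female, while the methods name both sexes for work in vitro. These features move with the genotype labels. Their part in the differences between genotypes was not tested and cannot be told apart from that of the genotype. Fewer cells of a type and less RNA per cell cannot be told apart on such arrays.

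The 2 D cyclins measured moved in opposite directions upon re-stimulation and differed little between genotypes. Ccnd2, the cyclin D2 gene, which responds early to mitogens and IL-2, had signals of 28956 (WT) and 34061 (KO) in resting cells and 70350 (WT) and 84372 (KO) after 4 h. Both re-stimulated arrays were thus above both resting arrays. The log2 response was 1.76 in WT cells, a 3.39-fold increase, and 1.61 in KO cells, a 3.05-fold increase. The 3 Ccnd2 probes gave responses from 1.76 to 1.85 in WT and from 1.61 to 1.70 in KO cells. Their differences between genotypes were from 0.24 to 0.34 before and from 0.09 to 0.19 after re-stimulation, far under 2-fold. Ccnd3, the cyclin D3 gene, needed for the expansion of immature thymocytes, had signals of 24945 (WT) and 22747 (KO) in resting cells and 3115 (WT) and 2975 (KO) after 4 h. Both re-stimulated arrays were below both resting arrays. Its log2 response of -2.52 in WT and -2.63 in KO cells corresponds to decreases of 5.74-fold and 6.21-fold, the largest decreases among the 9 members in either genotype. Among all genes measured, 0.613% fell as far in WT cells and 0.484% in KO cells. Between genotypes, Ccnd3 differed by -0.24 after re-stimulation and by -0.13 before it, where scaling to Cd3e in place of the 75th percentile turned the sign to 0.011.

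**Figure D1:**
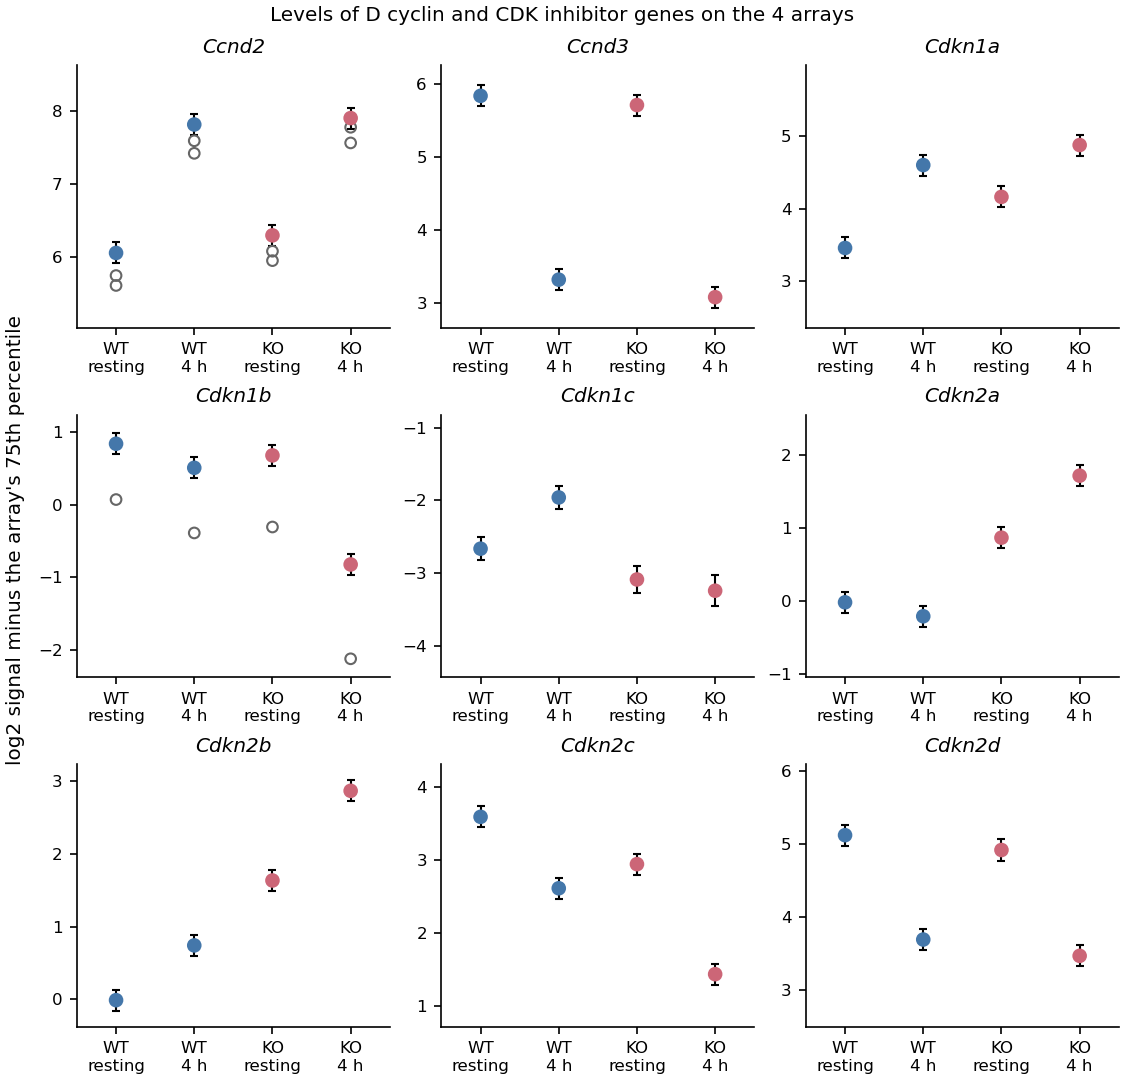
Each panel plots the level of 1 gene on the 4 arrays, as the log2 signal minus the 75th percentile of the array, with WT arrays in blue, arrays labelled KO in red, error bars for the scanner software's error of 1 array and open circles for other probes of the gene. All panels span the same range of log2 units around different centres. Ccnd2 was higher and Ccnd3 and Cdkn2d were lower on both 4 h arrays, while both arrays labelled KO were above both WT arrays for Cdkn2a and Cdkn2b.

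The Cip/Kip genes did not move together. Cdkn1a encodes p21, an inhibitor that p53 induces upon DNA damage and that activated T cells also express. Its signals were 4798 (WT) and 7763 (KO) in resting cells and 7561 (WT) and 10320 (KO) after 4 h, so that the resting WT array was the lowest of the 4 and the re-stimulated KO array the highest. The log2 response was 1.14, or 2.20-fold, in WT cells and 0.71, or 1.64-fold, in KO cells. The WT response came under 2-fold when arrays were scaled to their medians (0.84) or corrected by normexp (0.99). The difference between genotypes was 0.70 before and 0.27 after re-stimulation. The probe was spotted 10 times on each array, with SDs between spots of 0.027 to 0.050 on the log2 scale.

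Cdkn1b encodes p27, which holds resting lymphocytes out of the cell cycle. Its brighter probe had signals of 777 (WT) and 693 (KO) in resting cells and 443 (WT) and 199.5 (KO) after 4 h. A further probe, spotted 10 times per array, had signals of 457 (WT) and 351 (KO) in resting cells and 239 (WT) and 81.4 (KO) after 4 h. Both probes were thus lowest on the re-stimulated KO array. In KO cells the log2 response was -1.50, a decrease of 2.82-fold, by the brighter probe and -1.81 by the other, against -0.33 and -0.46 in WT cells. After re-stimulation the genotypes differed by -1.33, or 2.51-fold, and by -1.73, or 3.31-fold. Of all genes measured there, 2.17% were as low or lower in KO cells as by the brighter probe. Before re-stimulation the differences were -0.16 and -0.38.

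Cdkn1c encodes p57, the imprinted member of the family. Its signals were 68.9 (WT) and 51.2 (KO) in resting cells and 80.4 (WT) and 37.4 (KO) after 4 h. Both KO arrays were below both WT arrays. The difference between genotypes was -0.42 before and -1.28, or 2.43-fold, after re-stimulation, and the latter came to -0.64 with normexp background correction. The response was 0.70 in WT cells and -0.15 in KO cells, where scaling to Cd3e turned the sign to 0.10.

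Among the Ink4 genes, Cdkn2a and Cdkn2b were higher in KO cells and Cdkn2c was lower. Cdkn2a and Cdkn2b are neighbours on chromosome 4. Cdkn2a has an upstream start that gives the Arf transcript, whose product restrains Mdm2 and so protects p53, and a downstream start that gives the transcript of p16, while Cdkn2b encodes p15. The probe of Cdkn2a was designed on the Arf transcript NM_009877. The transcripts share exons, and the position of the probe was not analysed here, so its signal is not assigned to either. RefSeq promoter windows of the GRCm38.p6 build were found for 7 of the members, 11 windows in all. The 250 bases before each start of these neighbours are shown because both genes were higher in KO cells. They lie on the minus strand at chr4:89294620-89294869 (Cdkn2a upstream start), chr4:89282193-89282442 (Cdkn2a downstream start) and chr4:89311033-89311282 (Cdkn2b), and capitals mark a match to E2F letters spelled out after the sequences.
Cdkn2a upstream start: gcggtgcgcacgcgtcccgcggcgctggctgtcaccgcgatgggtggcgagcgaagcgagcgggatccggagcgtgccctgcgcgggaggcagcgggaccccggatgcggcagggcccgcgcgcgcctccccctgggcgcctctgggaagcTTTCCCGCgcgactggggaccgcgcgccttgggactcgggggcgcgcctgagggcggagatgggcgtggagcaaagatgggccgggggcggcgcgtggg
Cdkn2a downstream start: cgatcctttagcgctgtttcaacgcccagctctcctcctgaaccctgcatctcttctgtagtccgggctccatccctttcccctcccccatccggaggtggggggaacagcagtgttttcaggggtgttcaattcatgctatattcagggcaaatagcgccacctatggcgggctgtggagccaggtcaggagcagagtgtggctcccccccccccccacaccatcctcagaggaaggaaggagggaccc
Cdkn2b: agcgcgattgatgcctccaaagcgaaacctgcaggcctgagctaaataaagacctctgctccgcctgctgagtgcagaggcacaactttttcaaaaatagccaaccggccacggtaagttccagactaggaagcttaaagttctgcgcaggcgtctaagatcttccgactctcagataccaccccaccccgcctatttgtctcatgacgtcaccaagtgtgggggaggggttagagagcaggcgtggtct
G and C make up 78.4% of the Cdkn2a upstream window, 60.0% of its downstream window and 53.6% of the Cdkn2b window, against a median of 52.4% over 32851 promoter windows. They hold 40, 7 and 12 CpG dinucleotides, against a median of 6. The AP-1 letters TGAGTCA, searched on both strands over 250 bases before and 50 after the start, were in none of the 11 windows and in 5.20% of all promoters. Bach2 itself binds AP-1-like sites, but these letters in a short window say nothing about its binding. The E2F letters TTTCGCGC, TTTGGCGC and TTTCCCGC were searched in the same way, and 1.84% of all promoters hold any of them. Of the 11 windows, only that of the Cdkn2a upstream start held one, TTTCCCGC, which begins 99 bases before the start. That match is a description and not a site.

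Cdkn2b had signals of 433 (WT) and 1346 (KO) in resting cells and 523 (WT) and 2563 (KO) after 4 h, so both KO arrays were above both WT arrays. The difference between genotypes was 1.64, or 3.12-fold, before and 2.12, or 4.35-fold, after re-stimulation. Of all genes measured, 2.33% and 1.19% were as far or farther up in KO cells. Over 9 alternative ways of scaling and filtering the difference ran from 1.43 to 1.78 before and from 1.96 to 2.22 after re-stimulation. The log2 response was 0.75 in WT and 1.23 in KO cells, and the latter came under 2-fold, to 0.96, when arrays were scaled to their medians. Cdkn2a had signals of 429 (WT) and 790.0 (KO) in resting cells and 269 (WT) and 1157 (KO) after 4 h, and again both KO arrays were above both WT arrays. Here the difference was 0.89, or 1.85-fold, before and 1.93, or 3.81-fold, after re-stimulation. The probe was spotted 10 times per array, with SDs between spots of 0.026 to 0.043. The response was 0.85 in KO cells and -0.19 in WT cells, where scaling to Cd3e turned the sign to 0.11.

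Cdkn2c and Cdkn2d encode the Ink4 proteins p18 and p19. Cdkn2c had signals of 5249 (WT) and 3332 (KO) in resting cells and 1908 (WT) and 951 (KO) after 4 h, with the re-stimulated arrays below the resting ones and each KO array below its WT partner. The difference between genotypes was -0.65, or 1.57-fold, before and -1.18, or 2.26-fold, after re-stimulation, where 2.81% of genes were as low or lower in KO cells. The response was -0.98 in WT cells and -1.51 in KO cells. The WT value passed 2-fold under 3 of the 9 alternatives, at -1.28 when scaled to the median and closer to 2-fold with quantile normalization, alone or after normexp, which made 3 lower members in WT cells. Cdkn2d had signals of 15217 (WT) and 13153 (KO) in resting cells and 4044 (WT) and 3907 (KO) after 4 h. Like Ccnd3, it was lower on both re-stimulated arrays, with responses of -1.43, or 2.70-fold, in WT and -1.45, or 2.73-fold, in KO cells. Its differences between genotypes were -0.20 and -0.22.

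**Figure D2:**
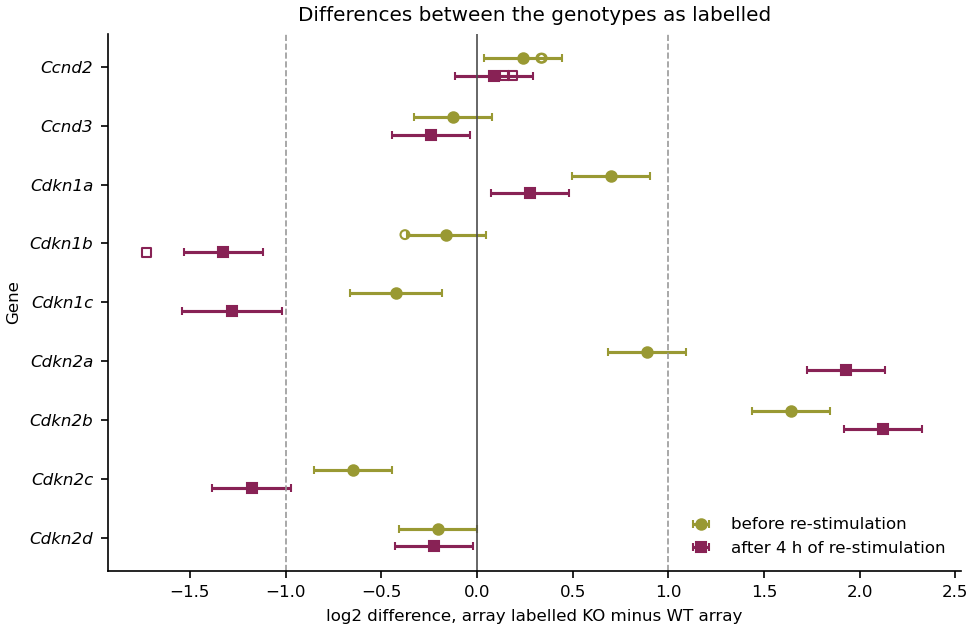
The log2 difference between the array labelled KO and the WT array is plotted for each gene before (green circles) and after 4 h (purple squares) of re-stimulation, with open symbols for other probes and bars for the scanner software's error of the difference. Dashed lines mark 2-fold. Cdkn2b lay beyond 2-fold on both occasions, and Cdkn1b, Cdkn1c, Cdkn2a and Cdkn2c only after re-stimulation.

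Between genotypes 1 member passed 2-fold before re-stimulation and 5 did after it. In resting cells 1 of 9 members, Cdkn2b, was at least 2-fold higher in KO cells, where 5.26% of 12136 genes were. No member was at least 2-fold lower, against 2.82% of genes. After re-stimulation 2 members (Cdkn2a and Cdkn2b) were higher and 3 (Cdkn1b, Cdkn1c and Cdkn2c) were lower, where 5.17% and 3.85% of 12348 genes were. The median difference of the members was -0.13 before and -0.22 after, beside medians of -0.0033 and 0.016 over all genes. These medians hide movement both ways, since the members ranged from -0.65 to 1.64 before and from -1.33 to 2.12 after re-stimulation. A 3-fold rule left none of the 3 lower calls.

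Upon re-stimulation of WT cells, 2 of 9 members (Ccnd2 and Cdkn1a) were at least 2-fold higher and 2 (Ccnd3 and Cdkn2d) lower, where 13.2% and 13.5% of 12388 genes were. In KO cells 2 members (Ccnd2 and Cdkn2b) were higher, where 12.4% of 12395 genes were. A further 4 members (Ccnd3, Cdkn1b, Cdkn2c and Cdkn2d) were lower, where 13.0% were. Ccnd2, Ccnd3 and Cdkn2d passed 2-fold in both genotypes. Their responses differed between genotypes by -0.15, -0.11 and -0.02. The difference of the responses, KO minus WT, was past 2-fold upward for 1 member, Cdkn2a at 1.04, where 1.82% of 10810 genes were. It was past 2-fold downward for 1 member, Cdkn1b at -1.17, where 3.00% of genes were. The other Cdkn1b probe gave -1.35. Both came just under 2-fold with normexp correction, at 0.94 for Cdkn2a and -0.91 for Cdkn1b. For the remaining members the difference of responses was -0.86 for Cdkn1c, -0.53 for Cdkn2c, -0.43 for Cdkn1a and 0.48 for Cdkn2b. The software's error of such a difference of differences was 0.29 to 0.35.

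**Figure D3:**
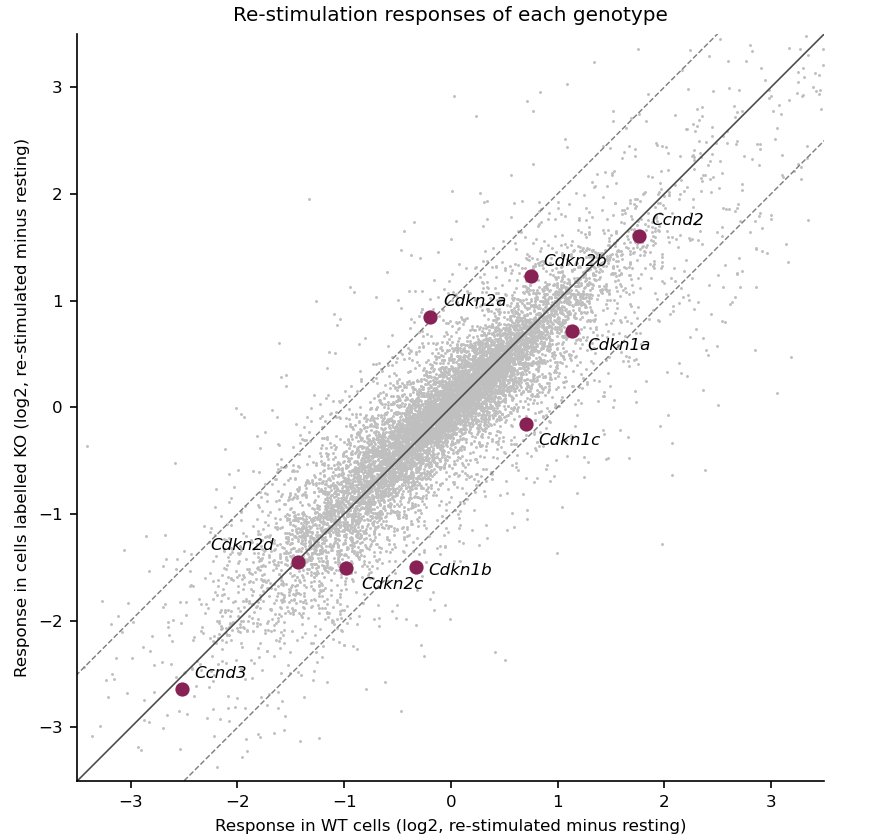
Each point is 1 of 10810 genes well above background on all 4 arrays, with the log2 response to 4 h of re-stimulation in WT cells on the horizontal axis and in cells labelled KO on the vertical axis, and the 9 members are named. The solid line marks equal responses, dashed lines mark a 2-fold difference between them, and 148 genes beyond 3.5 on either axis are not drawn. Ccnd2, Ccnd3 and Cdkn2d lie near the line of equal responses, and Cdkn2a and Cdkn1b lie just outside the dashed lines.

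The partners of the members in the cell cycle were described by lists chosen with earlier results of these data known. CDK4 and CDK6 are the kinases of the D cyclins. Cdk4 differed by -0.06 and -0.03 between genotypes before and after re-stimulation and Cdk6 by 0.62 and 0.61, both under 2-fold. Among 16 CDK and other cyclin genes measured in resting cells, 1 was at least 2-fold higher in KO cells, Wee1 (1.29), a kinase that restrains CDK1. Of 15 measured after re-stimulation, 3 were at least 2-fold lower in KO cells, where 3.85% of all genes were. These were Cdc25b (-1.20), a phosphatase that activates CDK1, and the cyclin genes Ccna2 (-1.04) and Ccnb2 (-1.01). Both cyclin genes were just past 2-fold, at 2.06-fold and 2.01-fold. Scaling to Cd3e shifted the median difference of all genes after re-stimulation upward by 0.097, farther than either cyclin gene lay past 2-fold. Upon re-stimulation 5 of 16 in WT and 4 of 16 in KO cells were at least 2-fold lower and none was higher. Of all genes, 13.5% in WT and 13.0% in KO cells were lower, and 13.2% and 12.4% higher. Cdc25b responded by -1.53 in WT and -2.42 in KO cells, Cdc25c by -1.65 and -1.70, Ccnb2 by -1.30 and -1.86, and Ccna2 by -1.23 and -1.66. The list's median response was -0.69 in WT and -0.87 in KO cells.

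The retinoblastoma and E2F genes lie directly downstream of the D cyclins. None of the 13 differed by 2-fold between genotypes, with medians of 0.03 before and -0.09 after re-stimulation. In response to re-stimulation 6 were at least 2-fold lower and 1 higher in WT cells, and 7 lower and 1 higher in KO cells. Of all genes, 13.5% were lower and 13.2% higher in WT cells, and 13.0% and 12.4% in KO cells. E2f2, an activating E2F, responded by -1.84 in WT and -2.40 in KO cells. E2f7, a repressing E2F, responded by -1.55 and -1.66. E2f5, a partner of the pocket proteins, was the one higher gene, at 1.82 and 2.01. Rb1 itself responded by -1.18 in WT and -1.70 in KO cells. The 23 proliferation genes measured, which act in DNA replication and mitosis, all had responses below 0 in both genotypes. Of these, 11 in WT and 13 in KO cells were at least 2-fold lower, beside 13.5% and 13.0% of all genes. The list's median responses were -0.94 and -1.10. Among the lower genes were Tk1 (-1.59 and -1.74) and Top2a (-1.46 and -1.76). Between genotypes none passed 2-fold, beside the same shares of all genes as for the E2F list. The medians were -0.12 before and -0.20 after re-stimulation.

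A further list held genes that act upstream of D cyclins and Cdkn1b in T cells. Of 18 measured, 7 were at least 2-fold higher upon re-stimulation in each genotype, where 13.2% of all genes were in WT and 12.4% in KO cells. In WT cells 1 was lower and in KO cells 0 were, where 13.5% and 13.0% of all genes were. Bcl6, a repressor of D cyclin and other genes, responded by 4.38 in WT and 4.60 in KO cells. Stat5a, which carries the IL-2 signal, responded by 3.17 and 3.37. Myc responded by 1.32 and 1.05. Mycn was the only one past 2-fold between genotypes, at 1.77 after re-stimulation, where 5.17% of all genes were at least 2-fold higher in KO cells. Before re-stimulation Mycn differed by -0.07, and its responses were -1.93 in WT and -0.10 in KO cells. None of 11 genes for the turnover of D cyclins and p27 passed 2-fold in any comparison. Their median differences lay between -0.22 and 0.17. Of all genes, 2.82% to 5.26% passed 2-fold in each direction between genotypes and 12.4% to 13.5% upon re-stimulation. In the difference of responses 1.82% of all genes passed upward and 3.00% downward.

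Since Cdkn1a is a p53 target, 19 other p53 targets and regulators were read. None differed by 2-fold between genotypes in resting cells, and 1 did after re-stimulation, the apoptosis-linked membrane gene Perp (1.24). There, 5.17% of all genes were at least 2-fold higher in KO cells and 3.85% lower. In resting cells 5.26% were higher and 2.82% lower. Trp53, the p53 gene, differed by 0.03 and -0.17 and Mdm2, its main negative regulator, by 0.17 and 0.14. Upon re-stimulation 3 were at least 2-fold higher and 2 lower in each genotype. Of all genes, 13.2% were higher and 13.5% lower in WT cells, and 12.4% and 13.0% in KO cells. Plk2 responded by 4.66 in WT and 4.98 in KO cells, Plk3 by 3.42 and 3.13, and Perp by 3.17 and 3.87. Of the lower genes, Bbc3 responded by -1.23 in WT and -1.63 in KO cells and Sesn1 by -1.31 in WT cells. The list's median response was -0.06 in WT and 0.42 in KO cells. Polycomb proteins are known to silence the Cdkn2a and Cdkn2b genes. Of 16 genes for Polycomb and other regulators of the locus, none differed by 2-fold in resting cells. After re-stimulation 1 was higher in KO cells, Jdp2 (1.65), an AP-1 family member, and 1 was lower, Id1 (-1.02), an inhibitor of E proteins. Of all genes, 5.17% were at least 2-fold higher and 3.85% lower there, and 5.26% and 2.82% in resting cells. The Id1 signals after re-stimulation were 73.9 (WT) and 41.0 (KO). Its difference lay nearer to 2-fold than the 0.097 by which scaling to Cd3e shifted the median of all genes. Ezh2 differed by 0.01 and -0.12 and Bmi1 by 0.30 and 0.04. Upon re-stimulation 2 of the 16 were at least 2-fold higher and 3 lower in WT cells, and 3 higher and 2 lower in KO cells. The shares of all genes were those given for the p53 list. Kdm6b, which removes the Polycomb mark from histone H3, responded by 3.89 in WT and 3.74 in KO cells. Kdm2b responded by 1.82 and 1.72, Men1 by -1.78 and -1.61, and Jdp2 by -1.61 in WT cells. None of 9 reference genes passed 2-fold in any comparison.

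**Figure D4:**
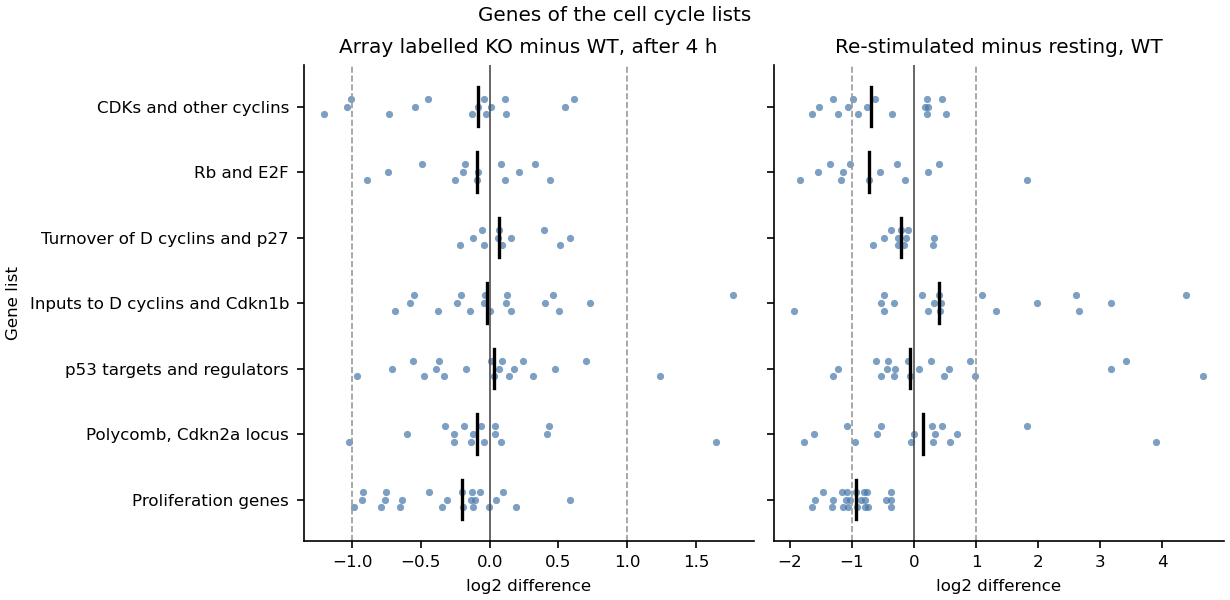
Every dot is 1 measured gene of the list named on the left, black bars mark the list's median and dashed lines mark 2-fold. The left panel plots the log2 difference between the array labelled KO and the WT array after 4 h, and the right panel the log2 difference between re-stimulated and resting WT cells, on scales of their own. List medians between genotypes lie from -0.20 to 0.07, while the proliferation genes all lie below 0 upon re-stimulation.

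Genes whose pattern over the 4 arrays was most like that of a member were ranked among 10810 genes by the Euclidean distance of their log2 values, each gene centred on its own mean. Nearest to Ccnd2 were Nfat5 (0.064), Pwp2 (0.064) and Wdr77 (0.078). Nearest to Ccnd3 were Crmp1 (0.13), Slc41a3 (0.19) and Ctdspl (0.20). Cdkn1a was closest to Tmed1 (0.067), Mafg (0.070) and AI662270 (0.091), and Cdkn1c to Nrip1 (0.12), Glcci1 (0.15) and Zrsr1 (0.22). The genes nearest to Cdkn1b were Gimap4 (0.11), Evl (0.12) and Hsd17b11 (0.16). Plekhf1 (0.080), Slc66a2 (0.16) and Pomgnt2 (0.26) came nearest to Cdkn2a, and Car13 (0.20), Mep1a (0.25) and Tent5c (0.25) to Cdkn2b. For Cdkn2c they were Tbx6 (0.12), Slc28a2 (0.14) and Plxnc1 (0.16), and for Cdkn2d Wbp1 (0.057), Txndc16 (0.061) and Kmt5c (0.064). Among the members themselves the closest pairs were Cdkn1b with Cdkn2c (0.49), Cdkn2c with Cdkn2d (0.77), Ccnd2 with Cdkn1a (0.84) and Cdkn2a with Cdkn2b (0.86). All these distances rest on 4 arrays and describe likeness on them alone.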

How the data were processed

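Total RNA was labelled with Cy3 and hybridised to 4 one-colour Agilent arrays on 1 slide, scanned together. For each array the authors deposited an intensity per spot, which Feature Extraction 10.7.3.1 had corrected for background and spatial trends, with the software's error of that intensity. The authors deposited flags beside each intensity for spots well above background, saturated or uneven. They further deposited a table of log2 values, in which the 75th percentile of each array had been set to 0.

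Between 107 and 120 spots per array with uneven or outlier flags were left out, log2 values were averaged over the spots of a probe, and each array's 75th percentile, taken over 41173 probes, was subtracted. Probe names came from transcript accessions matched to a RefSeq table of GRCm38.p6, which named 27479 probes (66.7%) for 18749 genes. Its coordinates were not used, as the array follows another build. A gene was read from its brightest probe and used where 1 or more arrays of the comparison had that probe well above background, and any dimmer value was set to the lowest one that passed this flag on its array. The flag was met by 53.6% to 54.0% of probes, no used spot was saturated, and it is the number of arrays that limits precision. Groups followed the labels. With 1 array per group no test was made, and genes were counted past 2-fold. Members and gene lists were chosen with earlier results of these data known. The text names from all members, from the up to 4 genes per list and comparison that were farthest past 2-fold, and from the 3 genes nearest to each member past 2-fold. Cdk4, Cdk6, Myc, Trp53, Mdm2, Ezh2 and Bmi1 fall outside this rule and were named for their roles after their values were seen. The alternatives were scaling to the median, to the Cd3e probe or to a 75th percentile over only those probes that passed the flag on all arrays, quantile normalization, normexp (offset 50) with quantile normalization, the authors' table, the mean over a gene's probes, filters on both arrays or none, and 3-fold and 1.5-fold rules. Scripts in Python 3.11.15 (numpy 2.4.6, pandas 2.3.3) and R 4.3.3 (limma 3.58.1) were tested on simulated data.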

Additional observations from a re-analysis of the deposited data

Results flagged for a closer look

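The responses to re-stimulation had opposite signs in the genotypes for 2 members. For Cdkn2a the log2 response was -0.19 in WT and 0.85 in KO cells, and for Cdkn1c it was 0.70 in WT and -0.15 in KO cells. With 1 array per condition, neither difference between the genotypes was tested, and in each case the response nearer to 0 was smaller than the software's error of a log2 difference.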

How the results depend on the processing

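Of 405 log2 differences of the members over the alternatives, 339 stayed within the median SD between probes of one gene, 63 moved farther with the same sign, and 3 moved farther and turned their sign, all when scaled to Cd3e. These were Ccnd3 between genotypes before re-stimulation (0.011), the Cdkn2a response in WT cells (0.11) and the Cdkn1c response in KO cells (0.10). Within that SD, the difference between the Cdkn2d responses (-0.02) came to 0.022 with quantile normalization and also lay above 0 when scaled to the median. Over all genes, the median difference shifted by 0.14 between resting genotypes and by 0.27 and 0.25 in the WT and KO responses when scaled to Cd3e, and by -0.30 and -0.26 in the responses when scaled to the median.

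Between resting genotypes, 1 member higher in KO cells became 2 when scaled to Cd3e and 3 with a 1.5-fold rule, which also called 1 lower in place of 0. After re-stimulation the 3 lower members became 0 with a 3-fold rule. In WT cells the 2 members higher upon re-stimulation became 1 when scaled to the median, with normexp or with a 3-fold rule, and 4 with a 1.5-fold rule, and the 2 lower became 1 with a 3-fold rule. In KO cells the 2 higher became 1 when scaled to the median or with a 3-fold rule and 4 with a 1.5-fold rule, and the 4 lower became 1 with a 3-fold rule. For the gene lists, reference genes included, 636 of 704 counts past 2-fold stayed equal or within 1.5-fold over the alternatives, and 68 moved farther. Other fold rules change counts by construction, and the cause of the other changes was not tested.

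Over all genes, normexp counted 262 higher and 115 lower in resting KO cells in place of 638 and 342, 310 and 241 in place of 638 and 476 after re-stimulation, and 853 and 822 higher upon re-stimulation of WT and KO cells in place of 1630 and 1534. Requiring both arrays above background left 425 and 221 in resting cells, and no filter gave up to 2951. Scaling to Cd3e raised the share of higher genes among those past 2-fold from 49.3% to 71.5% in the WT and from 48.9% to 67.7% in the KO response, and scaling to the median lowered it to 29.1% and 30.8%. No paired analysis was possible because the groups share only 1 replicate number. An additive fit of genotype and re-stimulation over the 4 arrays was not made.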
